A study of Mus musculus with 14 samples.

Results

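The CC chemokine ligand genes Ccl2, Ccl3, Ccl4, Ccl5, Ccl7, Ccl8, Ccl9 and Ccl12 and the receptor gene Ccr2 were followed in mouse ventral spinal cord after a demyelinating injury, with or without ablation of microglia. They were taken by gene symbol from a table of 24116 genes, and all 9 were listed and passed the filter on low values. Bulk RNA sequencing covered 14 libraries, each from 3 to 5 pooled mice, males and females together. All mice carried Cx3cr1-CreER, a tamoxifen-inducible Cre driven by the Cx3cr1 gene, which microglia express and which border macrophages and monocytes also use. Non-ablated mice were labelled Cx3cr1-CreER :Rosa26-iDTR-/- and ablated mice Cx3cr1-CreER :Rosa26-iDTR+/-, the second allele being a diphtheria toxin receptor switched on by Cre. All received tamoxifen for 3 days, lysophosphatidylcholine (LPC) in the ventral cord 4 to 6 weeks later, and diphtheria toxin every day until collection 5 days after LPC. LPC lesion tissue and uninjured distal tissue were microdissected, which gave 3 non-ablated distal libraries (1, 3 and 5), 3 non-ablated lesion libraries (2, 4 and 6), 4 ablated distal libraries (7, 9, 11 and 13) and 4 ablated lesion libraries (8, 10, 12 and 14), named here by the numbers in their titles. The age labels were 2 to 7 months in non-ablated and 8 to 15 months in ablated libraries, rising by 1 month with each title number; they are used as labelled, so age and genotype cannot be told apart. There was no group without toxin, and both regions of a genotype came from pools that the labels do not link.

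CC chemokines are small secreted proteins named for a pair of adjacent cysteines near the start of the mature chain, and they direct the migration of leukocytes through receptors coupled to inhibitory G proteins. Ccl2, Ccl7, Ccl8 and Ccl12 belong to the monocyte chemoattractant protein (MCP) family. CCR2, the receptor of Ccl2, Ccl7 and Ccl12, draws inflammatory monocytes out of the marrow and into injured tissue, whereas mouse Ccl8 is known to act on CCR8. Ccl3 and Ccl4 are macrophage inflammatory proteins that attract monocytes and T cells, and CCR1 binds Ccl3, Ccl5 and Ccl9. In the injured central nervous system these ligands are known products of microglia, infiltrating myeloid cells, astrocytes and endothelium.

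The family signature is printed for 7 of the 8 ligands as 36-base windows of the coding strand, 5′ to 3′, with the adjacent cysteine codons in capitals; they are the letters that make each ligand a CC chemokine and that tell these related genes apart. Each coding sequence held this pair once, and all 8 ligand genes lie on chromosome 11.
Ccl2: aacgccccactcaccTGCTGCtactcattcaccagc
Ccl7: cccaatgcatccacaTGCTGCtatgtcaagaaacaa
Ccl12: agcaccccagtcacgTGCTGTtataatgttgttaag
Ccl8: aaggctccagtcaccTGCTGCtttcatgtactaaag
Ccl4: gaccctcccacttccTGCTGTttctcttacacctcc
Ccl5: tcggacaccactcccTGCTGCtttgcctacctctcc
Ccl9: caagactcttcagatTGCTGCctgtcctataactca
The windows come from the GENCODE vM21 coding sequences on GRCm38, the assembly also called mm10. In that build Ccl2 (chr11:82035577-82037452), Ccl7 (chr11:82045712-82047525), Ccl12 (chr11:82101845-82103399) and Ccl8 (chr11:82115185-82116799) lie in this order on the plus strand. The gaps are 8.26 kb from Ccl2 to Ccl7, 54.3 kb from Ccl7 to Ccl12 and 11.8 kb from Ccl12 to Ccl8, and other genes within them were not listed. Their coding sequences were 67.9 to 70.7% identical in pairs. Ccl5 (chr11:83525778-83530518), Ccl9 (chr11:83572917-83578636) and Ccl3 (chr11:83647843-83649378) lie on the minus strand of the same chromosome and Ccl4 (chr11:83648624-83664683) on the plus strand. Ccr2 (chr9:124101918-124109140, plus strand) is on chromosome 9. Of the 75-base windows along their transcripts, 0 were shared with another gene in any of the 8 ligands, and 78 of 6734 in Ccr2 (1.16%) were shared with another gene. RefSeq models of Ccl3 and Ccl4 overlap by 755 bases on opposite strands, and Ccl5 lies within the long non-coding gene Gm32650, so reads there could be split where counting ignored strand, which is not stated.

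The libraries held 23601763 to 30844575 recovered reads, and values below are the authors' normalized counts, that is, gene counts divided by a size factor per library. Cx3cr1 was 17.3-fold lower in ablated than non-ablated lesions and 11.4-fold lower in ablated distal tissue as a ratio of group means, with adjusted p = 0.00301 and 0.00922. Of 13 homeostatic microglia markers 10 could be tested, and 6 fell in ablated lesions and 2 in ablated distal tissue. P2ry12, P2ry13 and Gpr34, also microglia markers, were at 0 in all libraries, non-ablated ones included, so they carry no information on ablation here. Whether the counting left these genes out was not tested. The summed normalized counts of the 13 markers were 155309 to 186487 in non-ablated lesions and 68871 to 104211 in ablated lesions. In distal tissue they were 93203 to 159703 and 76062 to 216431, the highest being in ablated library 9. As mean log2(normalized count + 1) of the same 13 markers, the distal genotypes did not overlap. Non-ablated distal libraries were at 8.64 to 9.22 and ablated ones at 7.52 to 7.64, with library 9 at 7.52. On that scale lesions were at 9.47 to 9.64 in non-ablated and 7.52 to 7.87 in ablated mice. Differences were tested with limma on log2(normalized count + 1) over 15637 genes, and genes whose p after Benjamini-Hochberg adjustment was under 0.05 were called. Every log2 fold change below is on that scale, with its standard error (SE).

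Every member that passed the test between regions was higher in lesions. In non-ablated mice Ccl3, Ccl4 and Ccl8 rose, 3 of 9 members, where 28% of all genes tested were called and 14.7% rose. In ablated mice Ccl3, Ccl4, Ccl7, Ccl8 and Ccl9 rose, 5 of 9, against 29.9% of genes called and 16.1% that rose. None of the 9 fell. The fitted difference was above 0 for 9 of 9 members in non-ablated tissue, with a median of 2.64, and for 8 of 9 in ablated tissue, with a median of 2.63, beside medians of 0.07 and 0.05 over all genes, of which 52.7 and 51.9% were above 0. Ccl12 was the exception. The lesion response did not pass the test for a difference between genotypes in any member (0 of 9 in limma, edgeR and DESeq2, 0 at an unadjusted p under 0.05 against 5.66% of genes, 0.0128% of genes called), with estimates from -1.88 ± 1.26 for Ccl12 to 1.28 ± 1.42 for Ccl7. The non-ablated count was 6 without library 5, where 4008 of 15580 genes were called. The ablated count was 3 without library 8, where 4228 of 15575 genes were called. Among markers of other cells, 8 of 8 astrocyte markers fell in lesions of both genotypes, with median log2 fold changes of -2.44 and -2.0. Of 8 fibroblast markers 7 rose in non-ablated and 6 in ablated lesions, with medians of 4.25 and 4.31. Their part in the members' values was not tested.

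**Figure D1:**
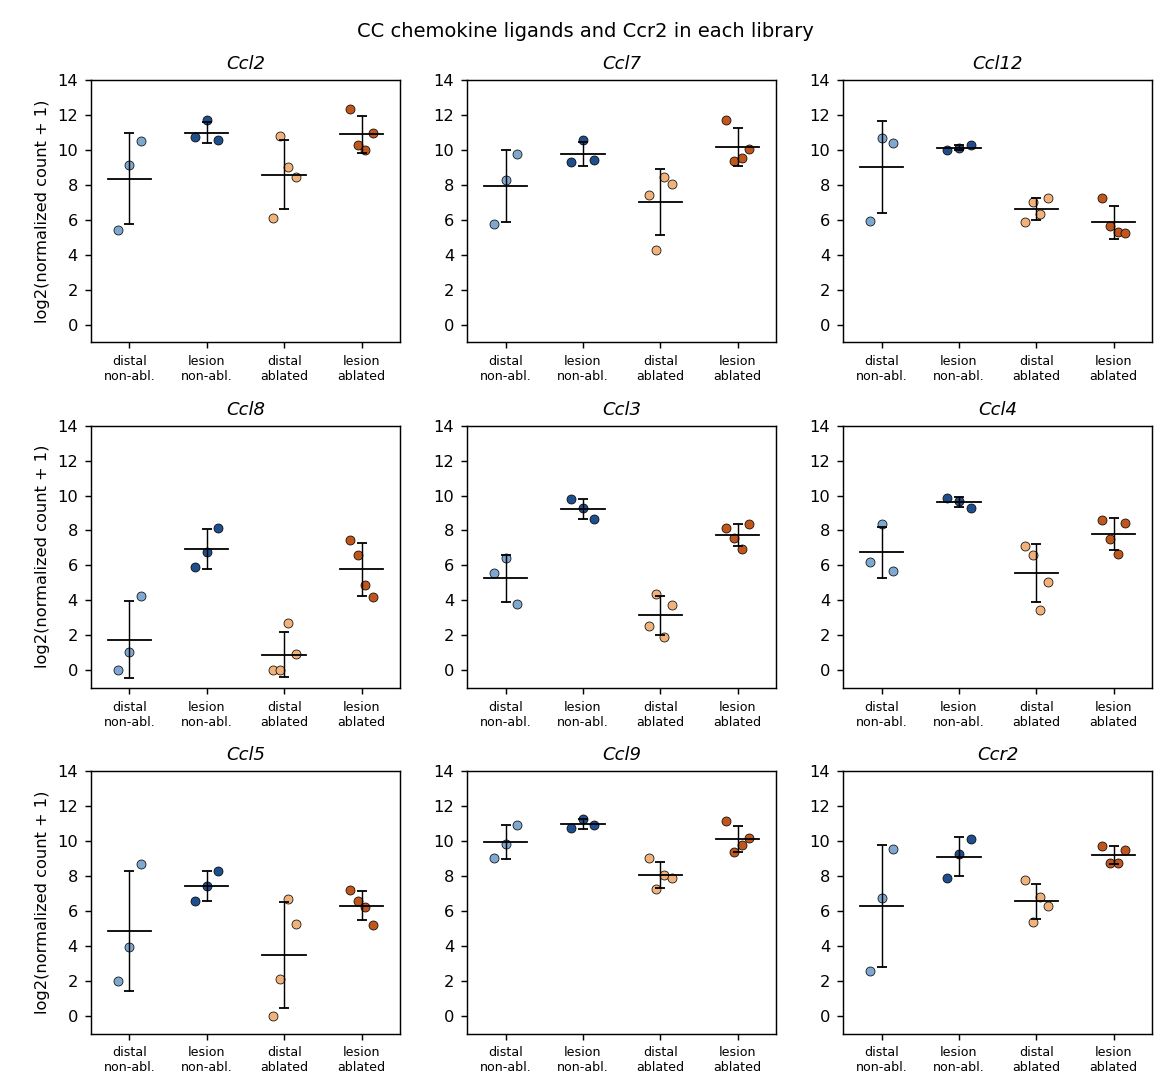
Each panel plots 1 gene as log2(normalized count + 1) in the 14 libraries by group; points are libraries, horizontal lines group means and bars 1 SD. Lesion libraries lie above distal ones for Ccl3 and Ccl8 in both genotypes, and Ccl12 is at 1021 to 1217 normalized counts in non-ablated lesions and at 36.8 to 152 in ablated lesions.

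Ablation left 0 of 9 members called in lesions, where 0.294% of all genes were called, and 0 of 9 in distal tissue, where 0.365% were. In lesions Ccl12 and Ccl4 had an unadjusted p under 0.05, 2 of 9 against 7.21% of genes, and in distal tissue Ccl9, Ccl3 and Ccl12 did, 3 of 9 against 9.69%. With array weights Ccl3, Ccl4, Ccl9 and Ccl12 were called lower in ablated lesions, where that setting called 1013 of 15637 genes. Without library 1, a non-ablated distal library, Ccl12 was called lower in both regions, 1 of 9 each. Over all genes that setting called 52 of 15562 in lesions and 145 in distal tissue. On recovered reads edgeR called 0 members in either region, while DESeq2 called Ccl12 in lesions and Ccl3, Ccl9 and Ccl12 in distal tissue. DESeq2 called 259 of 15637 genes in lesions and 532 in distal tissue. The members' median log2 fold change was -1.11 in lesions and -1.19 in distal tissue, against 0.01 for all genes in both. Groups did not overlap in lesions for Ccl12, Ccl3 and Ccl4, all lower in ablated libraries, and 8.36% of genes were separated in that direction. In bulk tissue, fewer cells of a type and less RNA per cell cannot be told apart.

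**Figure D2:**
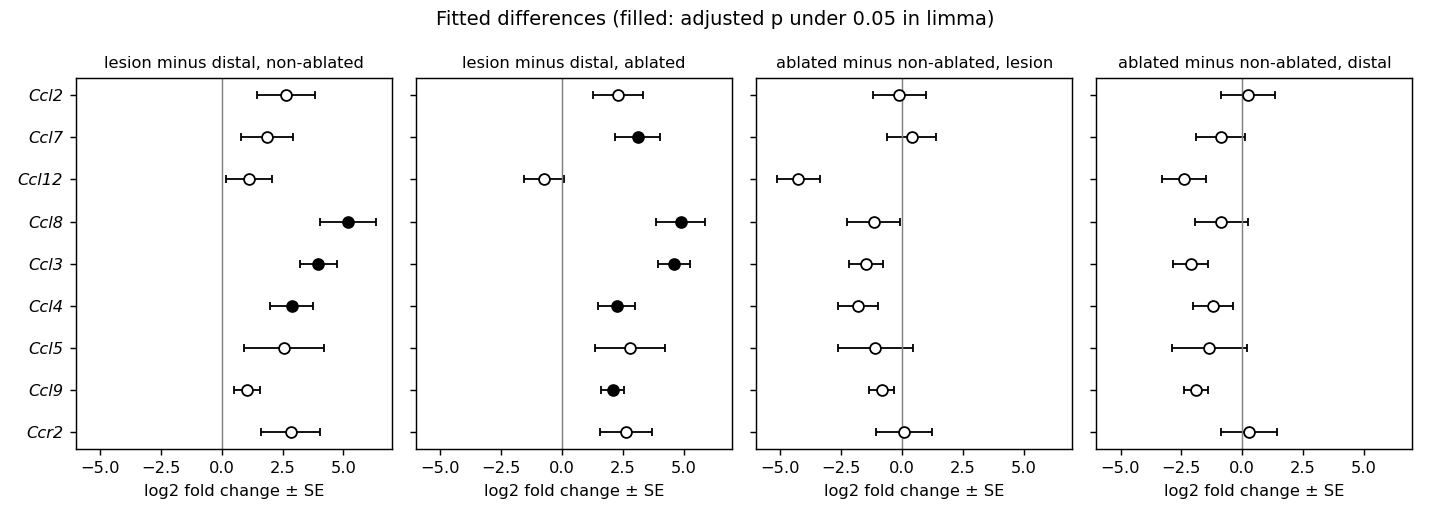
Log2 fold change with its SE (x axis) for each gene (y axis) in 4 comparisons; filled points passed the test. Filled points occur only in the lesion against distal panels, and Ccl12 lies farthest below 0 in ablated lesions, at -4.26.

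Ccl12, which encodes the mouse chemokine MCP-5, a CCR2 ligand, differed most between genotypes in lesions among the members. In non-ablated lesions its normalized counts were 1021, 1112 and 1217 in libraries 2, 4 and 6, a mean of 1117 ± 98.4 (SD, n = 3). In ablated lesions they were 152, 47.9, 39.0 and 36.8 in libraries 8, 10, 12 and 14, a mean of 68.8 ± 55.3 (SD, n = 4). Every ablated lesion lay below every non-ablated lesion, by 16.2-fold between means. The log2 fold change was -4.26 ± 0.89, which missed the threshold at adjusted p = 0.0695; over the 26 alternative settings the adjusted p ran from 2.49e-05 to 0.352, and it passed in 5. These were a pseudocount of 10 (0.0454), a fit of the 2 lesion groups alone (0.000999), array weights (4.93e-05), DESeq2 (2.49e-05) and leaving out library 1 (0.00508). With the age label as a covariate it was -5.06 ± 1.44 (adjusted p = 0.279).

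In non-ablated mice, 2 of 3 distal libraries held more Ccl12 than any lesion. The 3 non-ablated distal libraries 1, 3 and 5 gave 60.9, 1626 and 1331, and the ablated distal libraries 7, 9, 11 and 13 gave 58.2, 129, 79.4 and 147. Library 1 stood with the ablated libraries, so the groups overlapped. The ablated distal difference was -2.39 ± 0.89 (adjusted p = 0.379), and without library 1 it was -3.91 ± 0.55 (adjusted p = 0.0072). Between lesion and distal tissue Ccl12 differed by 1.12 ± 0.95 in non-ablated mice (adjusted p = 0.423), which turned to -0.40 ± 0.58 without library 1, and by -0.75 ± 0.82 in ablated mice (adjusted p = 0.539).

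The share of Ccl12 among the MCP family genes was lower in ablated than in non-ablated tissue. Of the summed normalized counts of Ccl2, Ccl7, Ccl12 and Ccl8, Ccl12 made 30.2, 18.4 and 33.1% in the non-ablated lesion libraries 2, 4 and 6. It made 1.74, 2.35, 2.18 and 1.19% in the ablated lesion libraries 8, 10, 12 and 14. In distal tissue the share was 39.4, 65.3 and 36.5% in libraries 1, 3 and 5 and 19.8, 6.70, 8.33 and 19.6% in libraries 7, 9, 11 and 13. The genotypes did not overlap in either region on this scale, library 1 included, and within each genotype every lesion share lay below every distal share. The share was set up after the values had been seen and is given with no test. Ccl2 made 59.6 ± 3.98% of the sum in ablated lesions (SD, n = 4) and 48.3 ± 7.25% in non-ablated lesions (SD, n = 3), and Ccl7 made 36.3 ± 3.97% and 20.7 ± 3.66%.

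**Figure D3:**
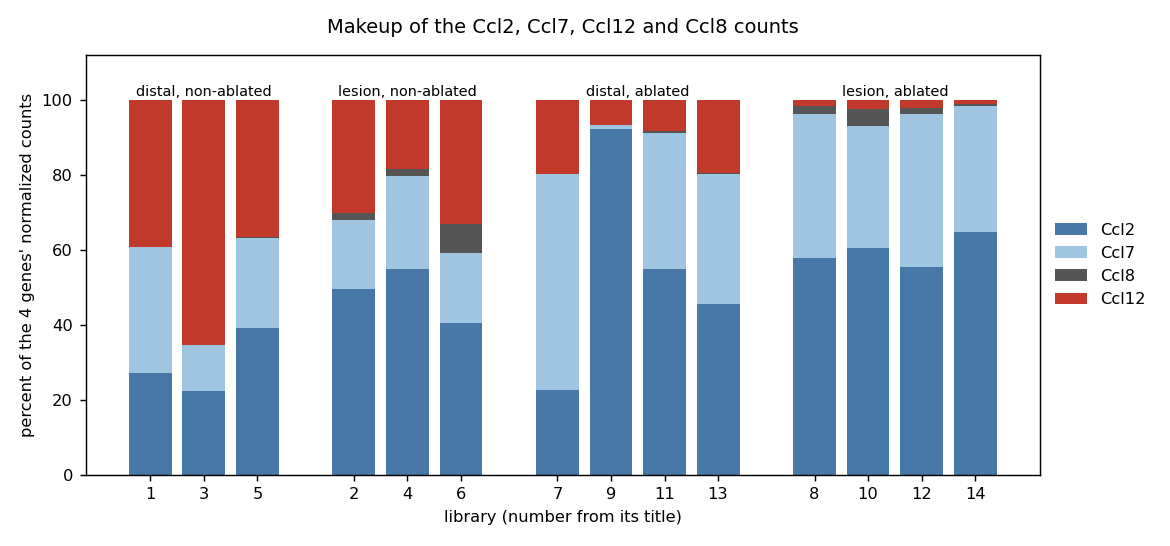
Stacked bars give the percent of the summed normalized counts of Ccl2, Ccl7, Ccl8 and Ccl12 that each gene made in every library, grouped by region and genotype. The Ccl12 part is 18.4 to 33.1% in non-ablated lesions and 1.19 to 2.35% in ablated lesions, and library 9 stands apart with 92.3% from Ccl2.

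Promoter sequences of Ccl12 and its neighbour Ccl8 are shown because the neighbouring genes differed in pattern. Both are the 250 bases before the RefSeq gene start in GRCm38.p6, plus strand, at chr11:82101595-82101844 and chr11:82114935-82115184.
Ccl12: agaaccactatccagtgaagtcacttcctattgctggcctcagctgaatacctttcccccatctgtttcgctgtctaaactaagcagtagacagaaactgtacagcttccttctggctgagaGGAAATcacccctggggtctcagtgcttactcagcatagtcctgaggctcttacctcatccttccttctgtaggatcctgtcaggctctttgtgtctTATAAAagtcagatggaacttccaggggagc
Ccl8: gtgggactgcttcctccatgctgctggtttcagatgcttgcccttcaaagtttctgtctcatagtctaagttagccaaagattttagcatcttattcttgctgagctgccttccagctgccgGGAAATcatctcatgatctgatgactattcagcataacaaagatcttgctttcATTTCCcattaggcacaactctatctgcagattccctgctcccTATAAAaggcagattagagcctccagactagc
Capitals mark TATAAA and GGAAAT on either strand, the last letters having been chosen after the sequences were read. The TATAAA match began 31 bases before the start in Ccl12 and 32 in Ccl8, and GGAAAT 128 bases before it in both. Of 32851 RefSeq promoter windows of 300 bases, 13.6% held TATAAA and 17.7% held GGAAAT on either strand. The windows of Ccl12 and Ccl8 were 65.5% identical over 275 aligned bases. Neither held TGANTCA (the AP-1 letters, in 7.81% of windows), the NF-kB consensus (4.51%) or TTCNNNGAA, the STAT letters (8.30%); these are matches of letters only.

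Ccl2 (MCP-1), the prototype monocyte attractant, was higher in every non-ablated lesion than in any non-ablated distal library. The non-ablated lesion libraries 2, 4 and 6 held 1672, 3319 and 1492 normalized counts, and the ablated lesion libraries 8, 10, 12 and 14 held 5037, 1231, 993 and 2010. Distal libraries ranged from 41.9 in library 1 to 1427 in library 5 among non-ablated and from 66.5 in library 7 to 1772 in library 9 among ablated ones. The genotypes overlapped in both regions. Lesion against distal gave 2.64 ± 1.18 in non-ablated mice (adjusted p = 0.116), where the groups did not overlap, and 2.29 ± 1.02 in ablated mice (adjusted p = 0.109). Without library 5 the first passed (3.71 ± 1.20, adjusted p = 0.0368), and without library 9 the second did (3.03 ± 1.00, adjusted p = 0.0345), as it did without library 1 (adjusted p = 0.0449). The genotype difference was -0.11 ± 1.11 in lesions, with a 95% interval of -2.48 to 2.26, wide enough to hold a change of either sign.

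Ccl7, or MCP-3, lies beside Ccl2 and attracts monocytes through CCR2. It was at 626, 1508 and 687 in the non-ablated lesion libraries 2, 4 and 6 and at 3347, 662, 733 and 1043 in the ablated lesion libraries 8, 10, 12 and 14. Distal values were 51.9, 304 and 870 in libraries 1, 3 and 5 and 169, 18.4, 345 and 260 in libraries 7, 9, 11 and 13. Library 8 was well above the other lesions, and library 5 exceeded 2 of the 3 non-ablated lesions. Ccl7 rose in ablated lesions (3.12 ± 0.93, adjusted p = 0.0194), and no ablated distal library reached the ablated lesion values. Without library 8 the rise was 2.60 ± 0.97 and missed the threshold (adjusted p = 0.065). The non-ablated difference was 1.84 ± 1.07 (adjusted p = 0.227). The ratio of Ccl2 to Ccl7 was 1.35 to 2.67 in the 7 lesion libraries, 96.5 in ablated distal library 9 and 0.394 in ablated distal library 7. In library 9 it rests on 11 recovered reads of Ccl7.

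Ccl8, or MCP-2, was near the detection limit in distal tissue and rose in lesions of both genotypes. Its normalized counts in the non-ablated distal libraries 1, 3 and 5 were 0, 1.10 and 17.8, and 0, 0, 5.48 and 0.894 in the ablated distal libraries 7, 9, 11 and 13. Lesions held 59.0, 109 and 285 in libraries 2, 4 and 6 and 175, 95.8, 28.2 and 17.2 in libraries 8, 10, 12 and 14. Distal libraries other than 5 and 11 were under the floor that 3 reads set, which was 2.16 to 5.01 normalized counts per library. The rise was 5.18 ± 1.16 in non-ablated mice (adjusted p = 0.00398) and 4.88 ± 1.00 in ablated mice (adjusted p = 0.00198), and both calls held in every setting run. With a pseudocount of 10 the fitted rises were 3.21 and 2.56. In lesions the genotypes overlapped (-1.17 ± 1.08, 95% interval -3.49 to 1.15).

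Ccl3 and Ccl4, the macrophage inflammatory proteins, rose in lesions of both genotypes. Ccl3 was at 46.9, 85.9 and 12.7 in the non-ablated distal libraries 1, 3 and 5 and at 882, 628 and 398 in the lesion libraries 2, 4 and 6. In ablated tissue it was at 4.75, 20.0, 2.74 and 12.5 in the distal libraries 7, 9, 11 and 13 and at 282, 191, 120 and 326 in the lesion libraries 8, 10, 12 and 14. No distal value reached a lesion value in either genotype. Ccl3 rose by 3.97 ± 0.75 in non-ablated mice (adjusted p = 0.00123) and by 4.61 ± 0.65 in ablated mice (adjusted p = 9.8e-05), and both calls held in every setting run. All 4 ablated lesions were below all 3 non-ablated lesions for Ccl3, by -1.49 ± 0.70 (adjusted p = 0.70), which passed with array weights only (-1.67 ± 0.41, adjusted p = 0.0238). The distal difference was -2.12 ± 0.70 (adjusted p = 0.303), with library 5 among the ablated values.

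Ccl4 was at 71.9, 332 and 49.6 in the distal and 919, 837 and 631 in the lesion libraries of non-ablated mice, in the order 1, 3, 5 and 2, 4, 6. In ablated mice it was at 138, 95.2, 10.0 and 32.2 in the distal libraries 7, 9, 11 and 13 and at 389, 184, 98.9 and 345 in the lesion libraries 8, 10, 12 and 14. Regions did not overlap in non-ablated mice, while distal library 7 exceeded lesion library 12 in ablated mice. The rise was 2.88 ± 0.88 in non-ablated mice (adjusted p = 0.0253) and 2.25 ± 0.77 in ablated mice (adjusted p = 0.0384). The non-ablated call was lost with edgeR (adjusted p = 0.0579), without library 1, 2, 4, 5 or 6, and without 5 and 6 together, with adjusted p up to 0.141. The ablated call was lost in 10 settings, which were edgeR, the 2 groups alone and leaving out library 2, 4, 6, 8, 10, 11, 13 or 14, with adjusted p from 0.0505 to 0.107. The lesion libraries did not overlap between genotypes (-1.82 ± 0.83, adjusted p = 0.667), and that difference passed with array weights only (-2.0 ± 0.46, adjusted p = 0.016). The ratio of Ccl4 to Ccl3 was 0.821 to 1.58 in lesions and 1.53 to 29 in distal tissue. The ablated distal ratios rest on 4, 12, 3 and 14 recovered reads of Ccl3 in libraries 7, 9, 11 and 13, the 29 being that of library 7.

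Ccl9, the macrophage inflammatory protein 1 gamma of rodents and a ligand of CCR1, rose in ablated lesions. It was at 517, 937 and 1985 in the non-ablated distal libraries 1, 3 and 5 and at 1708, 2507 and 1940 in the lesion libraries 2, 4 and 6. In ablated mice it was at 527, 152, 264 and 239 in distal and 2293, 673, 899 and 1174 in lesion libraries, in the order 7, 9, 11, 13 and 8, 10, 12, 14. Library 5 was inside the lesion range, and the ablated regions did not overlap. Ccl9 rose in ablated mice (2.08 ± 0.46, adjusted p = 0.00335, held in every setting run), whereas the non-ablated difference was 1.04 ± 0.53 (adjusted p = 0.172), which passed without library 5 (1.54 ± 0.53, adjusted p = 0.0494). The test of the difference between these responses gave 1.04 ± 0.71 (adjusted p = 0.939). In distal tissue Ccl9 had the smallest unadjusted p of the members for ablation, 0.00199, with -1.88 ± 0.50 (adjusted p = 0.162). The ranges of the genotypes met there, ablated library 7 at 527 lying just above non-ablated library 1 at 517. In lesions the genotype difference passed with array weights only (-1.10 ± 0.27, adjusted p = 0.024).

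Ccl5, or RANTES, a product of T and natural killer cells among others, was spread widely between distal libraries. It was at 3.00, 14.3 and 412 in the non-ablated distal libraries 1, 3 and 5 and at 0, 3.34, 102 and 38.4 in the ablated distal libraries 7, 9, 11 and 13. Lesions held 93.8, 175 and 310 in libraries 2, 4 and 6 and 150, 95.0, 74.8 and 36.8 in libraries 8, 10, 12 and 14. Library 5 was above every lesion. None of its comparisons passed; the lesion differences were 2.56 ± 1.65 in non-ablated mice (adjusted p = 0.281) and 2.80 ± 1.43 in ablated mice (adjusted p = 0.161). The summed level of the 13 listed T and natural killer cell markers was 1216 normalized counts in library 5 and 1340 in library 6, and 19.0 to 325 in the other 12 libraries. In non-ablated distal tissue the T cell markers Cd3e and Cd8a were at most 1.27, while Gzma, Gzmb and Nkg7 reached 411, 349 and 63.6. In non-ablated lesions Cd3e reached 45.9 and Cd8a 27.7. Without library 5 the non-ablated lesion difference of Ccl5 was 4.47 ± 1.51 (adjusted p = 0.0442), and without libraries 5 and 6 it was 4.05 ± 1.71 (adjusted p = 0.125).

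Ccr2, the receptor of the monocyte chemoattractants, was at 4.99, 106 and 743 in the non-ablated distal libraries 1, 3 and 5 and at 240, 622 and 1129 in the lesion libraries 2, 4 and 6. In ablated mice it was at 218, 40.1, 113 and 77.8 in the distal libraries 7, 9, 11 and 13 and at 864, 430, 435 and 728 in the lesion libraries 8, 10, 12 and 14. Library 5 lay within the non-ablated lesion range, whereas the ablated regions did not overlap. The lesion difference was 2.83 ± 1.23 in non-ablated mice (adjusted p = 0.106) and 2.63 ± 1.07 in ablated mice (adjusted p = 0.0784). The first passed without library 5 (4.45 ± 1.02, adjusted p = 0.00587) and without libraries 5 and 6 (3.94 ± 1.11, adjusted p = 0.0275), and was 0.97 ± 0.85 without library 1. The second passed in 7 of 26 alternative settings, among them DESeq2 (adjusted p = 0.0153) and leaving out library 1 (0.00828) or library 5 (0.0211). Between genotypes the lesion difference was 0.08 ± 1.15, and its 95% interval ran from -2.38 to 2.55.

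Markers of other cell types were summed in the same libraries. The 10 infiltrating monocyte markers summed to 50948 to 71512 normalized counts in non-ablated lesions and 21569 to 35139 in ablated lesions. In distal tissue the sums were 7594 to 28885 and 8821 to 13218, the highest being in library 5. Not all 10 rose in lesions. Against distal tissue limma called 3 higher and 1 lower in non-ablated mice, and 6 higher and 1 lower in ablated mice. In non-ablated mice edgeR and DESeq2 also called Ly6c2 lower, with means of 1553 in distal tissue and 483 in lesions. As mean log2(normalized count + 1) the lesion groups overlapped, at 9.01 to 10.3 and 8.76 to 9.85. Between genotypes in lesions 5 of the 10 were higher and 5 lower, with a median log2 fold change of -0.07. Of these 10, limma and edgeR called 0 between genotypes in lesions, 3 had an unadjusted p under 0.05, and DESeq2 called Ms4a4c. The 8 border macrophage markers summed to 4845 to 7327 in non-ablated and 11352 to 24637 in ablated lesions, with 0 of 8 called by limma, edgeR or DESeq2 and 1 at an unadjusted p under 0.05. The 12 neutrophil markers summed to 718 to 2361 and 2068 to 8457, with the highest value in library 8, where Ccl2, Ccl7 and 6 other members were also at their group's highest. Of these 12, 6 could be tested, and limma, edgeR and DESeq2 called 0 between genotypes in lesions, with 1 at an unadjusted p under 0.05. Elane, a neutrophil granule gene, was at 0 in all libraries, and Ly6g, Mpo, Camp, Ngp and Retnlg did not pass the filter on low values. In ablated lesions Ly6g was at most 3.99, S100a8 at most 1749 and S100a9 at most 190. Within non-ablated distal tissue, 7 of 9 members were lowest in library 1 and 6 of 9 were highest in library 5. The part of these cells in the results was not tested.

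**Figure D4:**
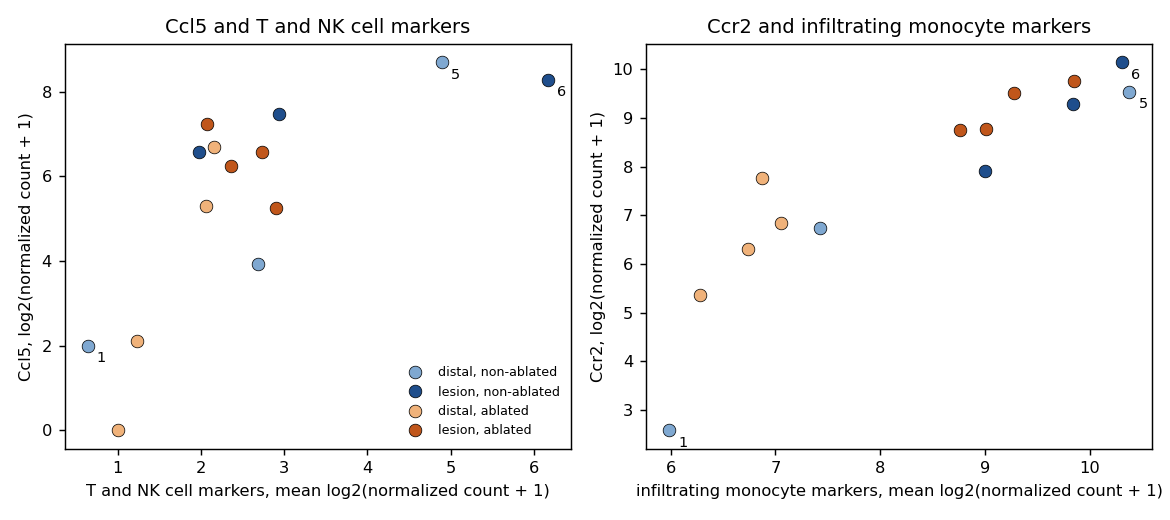
Left, Ccl5 against the mean log2(normalized count + 1) of 13 T and natural killer cell markers; right, Ccr2 against that of 10 infiltrating monocyte markers; each point is a library and both axes are log2. Libraries 5 and 6, with T and natural killer cell sums of 1216 and 1340, lie at the top right of both panels, and library 1 lies at the lower left.

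Per kilobase of exon, Ccl2 was the leading member in lesions, at 2658 ± 1238 normalized counts per kb in non-ablated (SD, n = 3) and 2851 ± 2293 in ablated mice (SD, n = 4). Ccl12 came next in non-ablated lesions at 2079 ± 183 per kb, within the spread of Ccl2, and was in place 8 of 9 in ablated lesions at 128 ± 103 per kb. The places below Ccl2 in ablated lesions went to Ccl7 (1806 ± 1596 per kb), Ccl9 (419 ± 239), Ccl4 (385 ± 206), Ccl3 (300.0 ± 120.3), Ccl5 (168 ± 88.9) and Ccl8 (155 ± 143). Neighbours in that order lay within 1 SD of each other (the larger of both), except Ccl3 and Ccl5. Ccr2 was last in both lesion groups, at 98.1 ± 66.0 and 90.8 ± 32.1 per kb. Lengths were the merged coding-transcript exons of GENCODE, 6760 bases for Ccr2. Its GENCODE model ends at 124113557, past the RefSeq end at 124109140. The annotation used for counting is not named, so the place of Ccr2 depends on that choice of length. In non-ablated distal tissue Ccl12 led with 1873 ± 1549 per kb and Ccl8 was last with 12.3 ± 19.5.

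Over the 14 libraries, the pairs of members with the highest Pearson r of log2 values were Ccl3 with Ccl4 (0.88), Ccl7 with Ccr2 (0.84) and Ccl5 with Ccl8 (0.83). After group means were subtracted these were 0.67, 0.74 and 0.85. Ccl2 and Ccl12 reached 0.34 over the libraries and 0.80 after that subtraction, and after it Ccl3 and Ccl4 had values of -0.66 to 0.01 with Ccl5, Ccl8 and Ccr2. Among all other genes, the most alike to Ccl12 was Cxcl13 (r = 0.91, 0.83 within groups), the B cell attractant, followed by Znfx1 (0.89) and Xaf1 (0.87). For Ccr2 these were Slc1a5 (0.94), Cytip (0.92) and Gata6 (0.91), and for Ccl7 they were S100a8 (0.94), Ptgfrn (0.93) and Acvrl1 (0.92). Ccl2 was most like Rab38 (0.94), Mlkl and Fbxo4, Ccl3 most like Lair1 (0.96), Treml2 and Inpp5d, and Ccl4 most like Slc16a3 (0.90), Shcbp1 and Pald1. Ccl5 was most like Scarf2 (0.91), Dgkq and Map1s, Ccl8 most like Psmb9 (0.95), Shc1 and Icam1, and Ccl9 most like Slamf6 (0.93) and Hhex. These are descriptions over 14 libraries that share the lesion contrast and library depth, with no test.

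Of the other CC ligands, 7 of 16 could be tested. Ccl11, eotaxin, which attracts eosinophils, rose in both genotypes, by 3.46 ± 0.74 (adjusted p = 0.0029) and 3.08 ± 0.64 (adjusted p = 0.00208). Its normalized counts were 3.31 to 17.0 in non-ablated distal, 74.7 to 161 in non-ablated lesion, 2.37 to 16.4 in ablated distal and 38.2 to 85.5 in ablated lesion libraries. Ccl27a, a skin-homing chemokine, fell in both, with -2.09 ± 0.61 (adjusted p = 0.0194) and -2.14 ± 0.53 (adjusted p = 0.00666), the first call being lost without library 4, 5 or 6. Between genotypes 0 of the 7 were called in either region by limma, edgeR or DESeq2, and 0 had an unadjusted p under 0.05. Ccl1 and Ccl6 were listed at 0 in all libraries, and the Ccl21 genes are not analysed here.

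Of 8 other CC receptors 3 could be tested, and 2 rose in lesions of both genotypes; Ccr8 was at 0 in all libraries. Ccr1, a receptor of Ccl3, Ccl5 and Ccl9, rose by 2.84 ± 0.83 (adjusted p = 0.02) and 2.71 ± 0.72 (adjusted p = 0.0105), the first lost without library 4, 5 or 6. Ccr7, the receptor that guides dendritic cells to lymph nodes, rose in both; it was at 0, 6.61 and 3.82 in non-ablated distal libraries 1, 3 and 5 and at 12.9 to 25.9 in their lesions. The non-ablated call was lost without library 1 or 4, with edgeR (adjusted p = 0.0742) and with only the groups compared (adjusted p = 0.0643). In ablated mice Ccr7 was at 0 in all 4 distal libraries and at 32.1 to 39.9 in lesions. Set against a floor of 3 reads per library, that is at least 9.94-fold higher. The limma test used no such floor and left the 4 distal values at 0, without spread (adjusted p = 2.33e-05). Distal libraries reached at most 6.61, so Ccr7 passed the filter on low values only through lesion libraries.

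Ccrl2, an atypical receptor that binds chemerin, rose in ablated lesions (5.81 ± 1.13, adjusted p = 0.0013), from 0 to 131 in distal to 807 to 1641 in lesion libraries. In non-ablated mice it was at 56.0 to 302 in distal and 758 to 1006 in lesion libraries, and it did not pass there with limma (2.65 ± 1.31, adjusted p = 0.153), though it did in 5 of 26 alternative settings, DESeq2 among them. Ackr1, an atypical receptor of endothelium and red cells, was at 642, 2987 and 15363 in the non-ablated distal libraries 1, 3 and 5 and at 454, 960 and 1919 in the lesion libraries 2, 4 and 6. These groups overlapped, and limma did not call the difference (-1.71 ± 0.84, adjusted p = 0.15), whereas edgeR and DESeq2 called it lower. Ackr4, a CC scavenger receptor, was at 0 in all libraries.

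**Figure D5:**
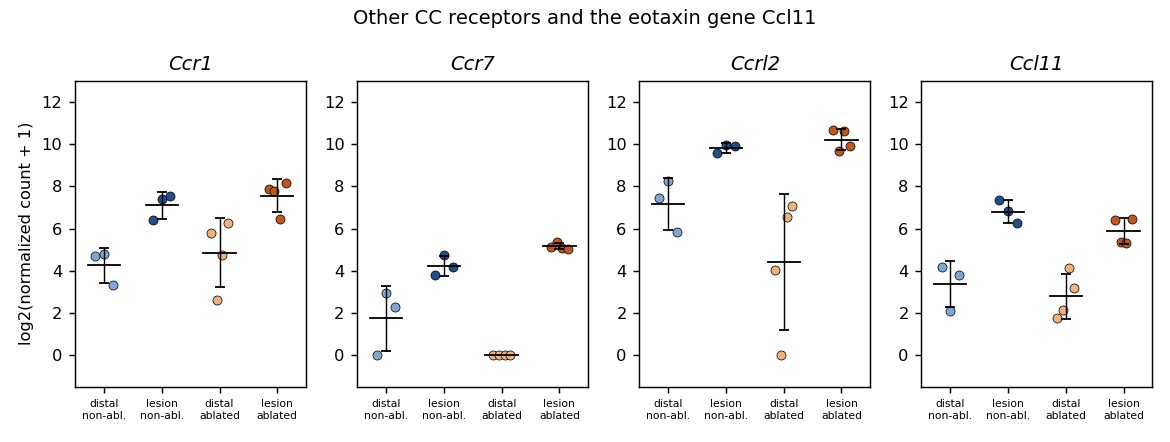
Log2(normalized count + 1) of Ccr1, Ccr7, Ccrl2 and Ccl11 in each library by group, with group means and 1 SD. Ccrl2 lies at 807 to 1641 normalized counts in ablated lesions and at 0 to 131 in ablated distal tissue, and Ccr7 is at 0 in all 4 ablated distal libraries.

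Downstream of these receptors, 5 of 12 tested signalling genes rose in non-ablated lesions and 6 of 12 in ablated lesions, beside 14.7 and 16.1% of all genes. Pik3r5 and Pik3cg, subunits of the phosphoinositide 3-kinase that G proteins activate, rose by 3.23 ± 0.52 and 2.38 ± 0.37 in non-ablated and 4.77 ± 0.45 and 2.68 ± 0.32 in ablated mice. Dock2, an activator of Rac in leukocytes, rose by 2.57 ± 0.38 and 3.50 ± 0.33, and its substrate Rac2 by 3.06 ± 0.62 and 3.65 ± 0.54. Arrb2, which desensitizes receptors, rose in both, by 1.39 ± 0.41 (adjusted p = 0.0208) and 1.92 ± 0.35 (adjusted p = 0.000862). The first call was lost without library 1, 3, 4 or 6, with edgeR (adjusted p = 0.0697) and with only the groups compared (adjusted p = 0.0682). Plcb2, a phospholipase, rose in ablated lesions (5.95 ± 1.08, adjusted p = 0.000769). Between genotypes limma and edgeR called 0 of the 12, with 2 at an unadjusted p under 0.05 in lesions (7.21% of all genes) and 5 in distal tissue (9.69%), where DESeq2 called Arrb2, Dock2 and Pik3cg lower. Gnb2 was among the 4706 genes at 0 in all libraries, and whether the counting left it out was not tested.

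The transcription factors NF-kB and AP-1 are known to drive CC ligand genes. Of 12 genes of these factors, their partners and their inhibitors, 6 rose in non-ablated and 7 in ablated lesions, beside 14.7 and 16.1% of all genes; edgeR called 6 in non-ablated lesions and 3 in ablated lesions (Cebpb, Junb and Jun). The transcription factor genes Cebpb (2.83 ± 0.51 and 2.11 ± 0.44), Junb (1.30 ± 0.35 and 1.75 ± 0.30), Rel (2.56 ± 0.68 and 1.90 ± 0.59) and Nfkb1 (1.03 ± 0.24 and 0.60 ± 0.21) rose in both. So did the NF-kB cofactor gene Nfkbiz (1.49 ± 0.48 and 1.28 ± 0.42) and Tnfaip3 (4.08 ± 0.87 and 2.47 ± 0.75), which encodes the NF-kB inhibitor A20. Jun rose in ablated lesions (1.05 ± 0.26). Of these, Cebpb was called in both genotypes in every setting run, whereas Nfkb1 in ablated mice was lost in 15 of 26. Leaving out single libraries also ended the calls of Junb (library 1) and Nfkbiz (1, 2, 4, 5 or 6) in non-ablated mice, and of Tnfaip3 (7, 13 or 14), Rel (7, 8, 11 or 14) and Nfkbiz (8, 9, 10, 12 or 13) in ablated mice. Between genotypes limma, edgeR and DESeq2 called 0 of the 12, with 1 at an unadjusted p under 0.05 in each region.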

How the data were processed

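RNA from microdissected tissue was amplified by multiple displacement and read for 75 cycles, per the labels' protocols. No molecular identifiers are recorded, so floors of 3 reads cover counting error only. BWA 0.7.17.1, bcl2fastq, DESeq2 and mm10 stand in the submitters' processing notes. Neither the counter nor the annotation nor any use of strand is named (not given in the sources used here). As deposited, the signal holds counts per gene scaled by DESeq2 size factors, per the submitters' processing notes and the values themselves. Whole reads were recovered (100% of values within 0.01), although the step of library 1 is too near 1 to be told from rounding. The 8 entries lacking a symbol (0.00265 to 0.0239% of reads) stayed in the tests.

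limma 3.58.1 with a trend, in R 4.3.3, was fitted to log2(normalized count + 1) of 15637 genes that reached 10 normalized counts in 3 or more libraries. The 4 group means shared 1 spread, with 10 residual and 4.23 prior degrees of freedom, and 95% intervals use their sum. Adjusted p-values are limma's unless edgeR 4.0.16 or DESeq2 1.42.0, both run on recovered reads, is named. On those reads edgeR called 4276 genes between non-ablated regions, 4682 between ablated regions, and 47 and 63 between genotypes in lesions and distal tissue. The p-values measure the spread between pools. edgeR and DESeq2 results, other scalings, pseudocounts and filters, array weights, the age label and fits without single libraries were alternatives. All members were named; of each pathway list, the 5 genes with the smallest p and every gene called; and for each member the 3 other genes with the highest Pearson r, leaving out predicted genes, RIKEN clones and pseudogenes by symbol. Members and lists were chosen with earlier results of these data known. Positions are RefSeq's on GRCm38.p6, matched by gene identifier for 9 of 9 members and by symbol for 5 of 9 promoters. The tests were tried on simulated counts, where DESeq2 made more false calls than limma or edgeR. Some items are not reported here.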

Additional observations from a re-analysis of the deposited data

Results flagged for a closer look

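Of 18 groups of 4 ablated libraries examined on unlogged normalized counts, 3 held a library far from the other 3. The rule flags about 1 in 20 groups only where values are normally distributed, which was not tested for these counts. Values on the log2 scale of the tests were not examined in this way. Ccl7 stood at 3347 normalized counts in ablated lesion library 8, beside 662 to 1043 in the other ablated lesions. Ccl12 stood at 152 in the same library, beside 36.8 to 47.9 in the others, and was still below the 1021 to 1217 of the non-ablated lesions. Ccl8 stood at 5.48 in ablated distal library 11, where the other 3 were at 0 to 0.894, under the floor of 3 reads. Library 8 also held the highest sum of the 12 listed neutrophil markers (8457) of the ablated lesions, which were at 2068 to 5718 otherwise. Of these markers, Ly6g, Mpo, Elane, Camp, Ngp and Retnlg were too low to be tested. The part of neutrophils in the Ccl7 and Ccl12 values of library 8 was not tested.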

How the results depend on the processing

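No paired analysis was possible because the groups compared share no replicate numbers. The limits of these data are 3 or 4 pools per group, pools without labels that link regions, age labels that rise with the genotype, and distal values of Ccl5, Ccl8 and Ccr2 near a few reads in some libraries. The members called in non-ablated lesions against distal tissue numbered 3, where 4374 of 15637 genes were called. With array weights 8 members and 6109 of 15637 genes were called. When single libraries were left out the members called ran from 2 to 6 (6 without library 5, with 4008 of 15580 genes). In ablated mice 5 members were called, and 3 to 7 with a library left out (3 without library 8, with 4228 of 15575 genes). Between genotypes in lesions 0 were called, 1 with a pseudocount of 10, with only the groups compared or with DESeq2, 4 with array weights (Ccl3, Ccl4, Ccl9 and Ccl12), and 0 to 1 with a library left out. In distal tissue it was 0, 3 with DESeq2, and 0 to 1 with a library left out. The single case in both was Ccl12 without library 1. The count for the difference of lesion responses was 0 in every setting run. TMM and upper-quartile scaling, a pseudocount of 0.5 and both other filters left all 5 counts as they were. Of 2275 recomputed values of single genes, 2118 kept direction and side of the threshold, 75 lost a call, 45 gained one and 37 changed sign, none of them a called value. For the difference of lesion responses, Ccl12 and Ccl7 were the only members among these values. In each case the cause was not tested. Over all genes, 46 were called between genotypes in lesions and 57 in distal tissue, against 259 and 532 with DESeq2, 1013 and 50 with array weights and 2 and 7 with the age label. For the difference of lesion responses it was 2 genes, 94 with DESeq2 and 6 with array weights.

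The sign changes between genotypes were as follows. In lesions Ccl2 turned to 0.079 with edgeR, 0.10 with DESeq2, and 0.25, 0.09 and 0.20 without libraries 4, 10 and 12. Ccl7 turned to -0.085 with array weights, -0.79 with age as a covariate and -0.12 without library 8. Ccr2 turned to -0.13 with edgeR, -0.11 with DESeq2, -1.75 with age, and -0.52, -0.10 and -0.02 without libraries 2, 8 and 14. In distal tissue Ccl2 turned to -0.061 with edgeR, -1.11 with age, and -1.22 and -0.50 without libraries 1 and 9, and Ccl4 to 0.42 with age. Ccl5 turned to 0.84 with array weights and 0.56 without library 5, with or without 6. Ccl7 turned to 0.38 with array weights, 0.047 without library 5, with or without 6, and 0.041 without library 9. Ccl8 turned to 0.082 with array weights and 0.37 without library 5, with or without 6. Ccr2 turned to -0.052 with a pseudocount of 10, -1.35 with edgeR, -1.34 with DESeq2, -1.55 with age, and -1.57 and -0.12 without libraries 1 and 7. Between regions, Ccl12 in non-ablated mice turned to -0.40 without library 1. When single libraries were left out, the lowest and highest values in lesions were -0.58 and 0.25 for Ccl2, -0.12 and 0.80 for Ccl7 and -0.52 and 0.60 for Ccr2. In distal tissue they were -1.22 and 1.31 for Ccl2, -2.79 and 0.56 for Ccl5, -1.97 and 0.047 for Ccl7, -1.75 and 0.37 for Ccl8 and -1.57 and 1.91 for Ccr2, and -0.40 and 1.96 for Ccl12 between non-ablated regions. The difference of lesion responses of Ccl7 turned to -0.47 with array weights. The other members except Ccl12 were not among the values counted above for this difference. Over all settings Ccl2, Ccl3, Ccl4, Ccl5, Ccl8 and Ccr2 also took both signs there. The range was -1.64 to 1.11 for Ccl2, -1.97 to 1.68 for Ccl5 and -1.82 to 1.65 for Ccr2.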

Other observations

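Ccl6, a CC ligand gene of rodents next to Ccl9, was listed at 0 in all 14 libraries. Its span (chr11:83587886-83593087, GRCm38.p6) lies within that of the non-coding gene E230016K23Rik. Among protein-coding genes whose RefSeq span lies inside another gene's, 530 of 744 (71.2%) were at 0 in all libraries, against 2397 of 19690 (12.2%) of those outside. Ccl5, which lies inside the span of Gm32650, was above 0 in 13 of 14 libraries, and Ccr8, Ccl1 and Ackr4 were at 0 in all of them.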
